A study of Homo sapiens with 4 samples.

Results

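The genes described here act in the G2 phase and in mitosis: cyclins and mitotic kinases, kinetochore and checkpoint proteins, spindle and cytokinesis factors, and proteins of mitotic exit, chromosome structure and mitotic transcription. The list names 50 genes by symbol. A probe set was named for 40 of them, 1 each, and all 40 passed the filter on low signal, among 12755 genes tested in all. ANLN, ASPM, CENPE, CENPF, DLGAP5, NUF2, SPC24, SPC25, TPX2 and UBE2C had no named probe set and were not analysed here. Kinesin motors were left out of the list by design, although CENPE, itself a kinesin motor of the kinetochore, was listed.

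Messenger RNA was profiled on 4 Affymetrix arrays of MDA-MB-231Br cells, a breast cancer line derived from MDA-MB-231, the name that the sample titles use. The comparison was between 2 groups of 2 arrays. The shControl group carried a control short hairpin RNA and the shYTHDF3 group a short hairpin RNA against YTHDF3, a cytoplasmic protein that binds N6-methyladenosine on RNA; both were delivered by lentivirus, with puromycin selection in both groups. The genotype field reads control for the first group and YTHDF3 knockdown for the second. How many hairpin sequences were used, and how long after transduction RNA was taken, is not given. The labels do not state whether same-group arrays derive from separate cultures; a p-value below therefore speaks only to the array-to-array spread, which may be technical.

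Cells enter mitosis when cyclin B and CDK1, helped by Polo-like and Aurora kinases, overcome inhibitory phosphorylation. The spindle checkpoint then delays the anaphase promoting complex until every kinetochore is attached, and the activated complex directs destruction of securin and the cyclins. Transcripts of many of these genes, though not of all, peak in G2 and mitosis. Their promoters are known for CCAAT boxes bound by NF-Y and for the cell cycle genes homology region (CHR), a short element. The CHR is bound by the MuvB complex. MuvB represses as part of DREAM in quiescent cells and activates with B-MYB and FOXM1 in dividing ones.

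Promoter letters were examined because they are a shared property that the choice of genes by name did not use. Windows of 300 bases, 250 before the transcription start and 50 after it, were taken from RefSeq (GRCh38.p14), which held 50 windows for 41 of the 50 genes. The CHR search used TTTGAA and TTTAAA, and the CCAAT search CCAAT, each on both strands. A CHR match lay in a window of 30 of the 41 genes (73.2%), against 27.9% of 27305 genes with a window. A CCAAT match lay in 32 of 41 (78.0%), against 39.7%. The letters TTTGAA alone occurred in 27 of 41 (65.9%), against 18.2% of all genes.

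The 7 stretches below are the 100 bases directly upstream of the start, read along the gene's strand, for the genes with the largest and the smallest array difference in each functional class that had a window. Capitals mark TTTGAA or TTTAAA and CCAAT, or their reverse complements TTCAAA and ATTGG. They run from CCNA2, INCENP and CDCA3, which differed most in their classes, to CCNB2, CENPK, CKAP2L and CDC20, which differed least.
CCNA2, chr4:121823884-121823983, minus strand: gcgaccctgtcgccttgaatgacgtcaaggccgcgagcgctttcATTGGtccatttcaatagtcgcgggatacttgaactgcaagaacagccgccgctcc
CCNB2, chr15:59105046-59105145, plus strand: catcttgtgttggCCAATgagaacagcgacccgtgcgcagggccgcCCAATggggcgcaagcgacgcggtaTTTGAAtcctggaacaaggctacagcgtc
INCENP, chr11:62123911-62124010, plus strand: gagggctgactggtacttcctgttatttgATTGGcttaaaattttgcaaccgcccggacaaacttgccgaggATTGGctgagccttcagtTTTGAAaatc
CENPK, chr5:65563169-65563268, minus strand: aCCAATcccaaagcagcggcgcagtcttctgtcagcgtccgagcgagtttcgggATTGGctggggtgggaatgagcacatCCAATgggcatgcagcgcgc
CKAP2L, chr2:112764610-112764709, minus strand: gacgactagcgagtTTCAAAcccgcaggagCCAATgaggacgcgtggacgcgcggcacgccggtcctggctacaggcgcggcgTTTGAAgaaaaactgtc
CDCA3, chr12:6851287-6851386, minus strand: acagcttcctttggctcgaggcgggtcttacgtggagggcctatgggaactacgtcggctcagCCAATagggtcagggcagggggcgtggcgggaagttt
CDC20, chr1:43358881-43358980, plus strand: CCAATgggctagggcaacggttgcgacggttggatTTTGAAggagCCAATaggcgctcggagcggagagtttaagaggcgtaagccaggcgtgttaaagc

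With -1 as the base before the start and positions given for the first letter of a match, TTTGAA stood at -29 in CCNB2, at -10 in INCENP, at -17 in CKAP2L and at -65 in CDC20. In CDCA3 it began at -3 and crossed the start, so the printed stretch ends inside it. CCNA2 and CENPK had CCAAT matches but neither TTTGAA nor TTTAAA in their windows. Variants of these letters were not searched, such as CTTGAA, which occurs in the printed CCNA2 stretch. The absence of a match is therefore not the absence of a CHR. A match is a run of letters, not a measured binding site.

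**Figure D1:**
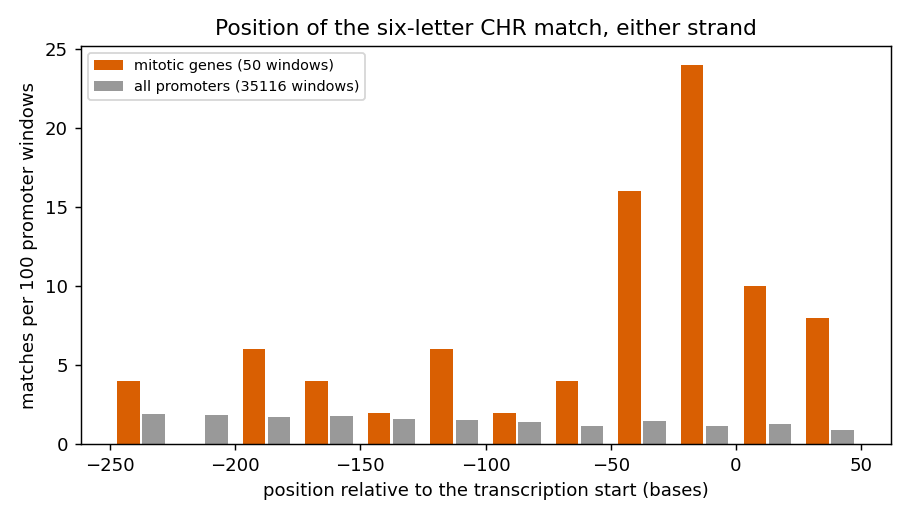
Position of TTTGAA on either strand in the promoter windows, as matches per 100 windows in bins of 25 bases, for the 50 windows of the mitotic genes (orange) and all 35116 windows (grey). In the bin of 25 bases before the start the mitotic genes held 24.0 matches per 100 windows, against 1.17 in all windows.

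Matches of TTTGAA gathered close to the start. Within the 50 bases upstream of it they occurred in 17 of 41 mitotic genes (41.5%) and in 3.22% of all genes; this narrower window was chosen after the positions were seen. The list of genes for the G1/S transition and DNA replication, taken for comparison, had the letters in that span in 0 of 34 genes and a CHR match anywhere in 17.6%, below the 27.9% of all genes. An E2F-like sequence (TTTCCCGC, TTTGGCGC or TTTCGCGC, both strands) lay in a window of 64.7% of those 34 genes, of 9.76% of the mitotic genes and of 3.30% of all genes. The mitotic genes with an E2F-like match were CDK1, CDCA5, CENPA and NUSAP1. No test was made of these shares.

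Array signals are deposited log2 expression values, and every difference below is the shYTHDF3 mean minus the shControl mean of 2 arrays each. Differences were tested with limma across all 12755 genes, with Benjamini-Hochberg adjustment. Since 2 arrays against 2 cannot give a permutation p below 0.333, the test borrows its estimate of spread from all genes. No probe set was named for YTHDF3, so the knockdown could not be checked on these arrays. Over all tested genes, Pearson's r was 0.992 within each group and between 0.986 and 0.987 across groups, as a description. Markers of the labelled line were mixed, each read against the array medians of 3.20 to 3.22 over all 53617 probe sets. Most of these have no gene name, and over the tested genes alone the medians were 4.94 to 4.98. Of the mesenchymal markers VIM stood well above the array medians at 9.83 to 9.90 and S100A4 near them at 2.90 to 3.63. Of the luminal markers the hormone receptor genes ESR1 and PGR stood below them, at 2.78 to 2.94 and 2.57 to 2.76. The keratin gene KRT18 stood well above, at 8.26 to 8.98. None of 12 tested luminal, 4 leukocyte or 4 fibroblast and endothelial markers passed limma's threshold, and of 7 markers of mesenchymal breast cancer lines FN1, fibronectin, fell (log2 difference -1.50, adjusted p = 0.0121).

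None of the 40 mitotic genes passed limma's adjusted threshold of 0.05 in either direction, where 0.753% of all tested genes did (0.0862% higher and 0.666% lower). The differences nevertheless lay mostly on one side. They were positive for 38 of 40 genes, against 50.8% of all tested genes, with a median of 0.18 on the log2 scale against 0.00 over all genes. Both shYTHDF3 arrays read above both shControl arrays for 22 of the 40 (22.6% of all genes), below them for 2 (22.8% of all genes), and the groups overlapped for 16. At an unadjusted p under 0.05 from limma, 10 genes were higher (6.24% of all genes) and 0 lower (8.48% of all genes). In RNA from whole cultures a larger share of cells in G2 or mitosis and more of each RNA per cell cannot be told apart.

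**Figure D2:**
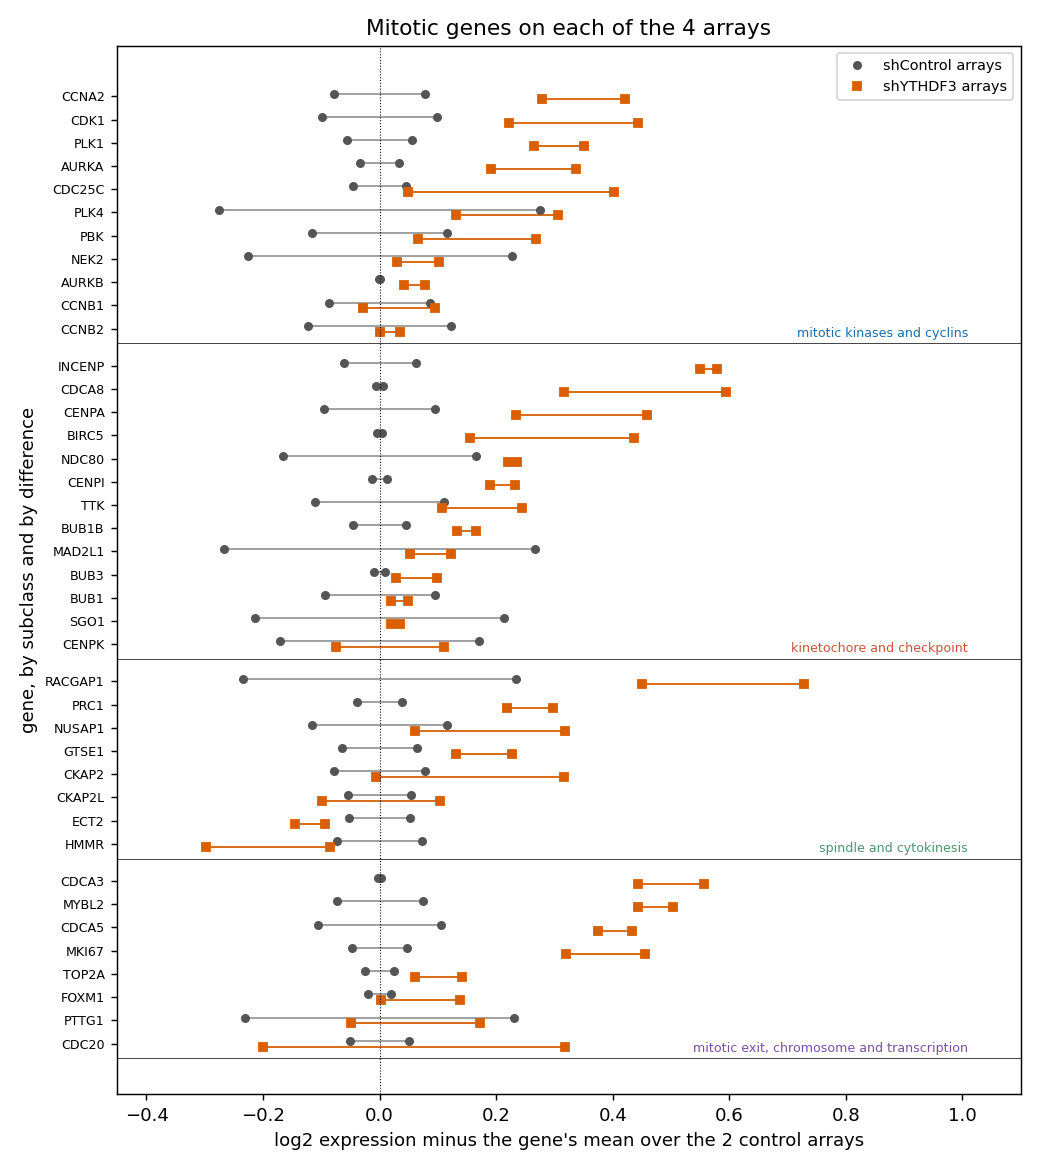
Log2 expression of the 40 mitotic genes on each array, minus the gene's own mean over the 2 shControl arrays; grey circles are shControl arrays, orange squares shYTHDF3 arrays, and lines join the arrays of a group. The orange pairs of INCENP, CDCA3 and MYBL2 stand clear to the right, while those of NEK2, MAD2L1 and SGO1 lie inside a wide grey pair.

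Mitotic kinases and cyclins all had positive differences (11 of 11), with a median of 0.22. In 6 of them knockdown lay above control without overlap, as in 22.6% of all tested genes. CCNA2, cyclin A2, which partners CDK2 and CDK1 from S phase into early mitosis, read 10.02 and 9.87 in the shControl arrays and 10.37 and 10.22 in the shYTHDF3 arrays. Both knockdown arrays were higher, by 0.35 on average (SE 0.14, 1.27-fold), with an adjusted p of 0.304 from limma. CDK1, the kinase that drives mitotic entry, read 8.22 and 8.02 against 8.56 and 8.34, again without overlap, a difference of 0.33 (SE 0.15, adjusted p = 0.353). For the Polo-like kinase PLK1, which acts from centrosome maturation to cytokinesis, the values were 9.25 and 9.36 against 9.57 and 9.66. Its difference of 0.31 (SE 0.13, adjusted p = 0.335) was larger than the gap of either pair of arrays.

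The B-type cyclins pair with CDK1 at mitosis. CCNB1, cyclin B1, read 8.98 and 8.80 in control and 8.86 and 8.98 in knockdown arrays, a difference of 0.03 with a 95% limma interval from -0.29 to 0.35. CCNB2, cyclin B2, read 7.56 and 7.32 against 7.44 and 7.47, with both knockdown arrays between the control arrays and a difference of 0.02 (interval -0.31 to 0.35). Whether the cyclin A2 difference is larger than those of the B cyclins was not tested.

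AURKA, the Aurora kinase of centrosomes and spindle poles, read 7.53 and 7.47 against 7.84 and 7.69, separated by 0.16 between the nearest arrays, with a difference of 0.26 (SE 0.13, adjusted p = 0.406). AURKB, the catalytic subunit of the chromosomal passenger complex, read 8.63 in both control arrays and 8.71 and 8.68 in knockdown arrays; the groups did not overlap, yet the difference was only 0.06 (interval -0.23 to 0.35). The phosphatase gene CDC25C, which removes the inhibitory phosphates of CDK1, had a difference of 0.23 with groups that barely separated, since its lower knockdown array (6.16) matched the higher control array (6.16) to 2 decimals. PLK4, the kinase that starts centriole duplication, read 7.97 and 7.42 in control and 8.005 and 7.83 in knockdown arrays. Its control gap of 0.55 was larger than its difference of 0.22. The remaining kinases, the mitotic kinase gene PBK and the centrosomal kinase gene NEK2, had overlapping groups and differences of 0.17 and 0.07.

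All 13 measured kinetochore and checkpoint genes had positive differences, with a median of 0.18. In 8 of them knockdown lay above control without overlap, as in 22.6% of all tested genes. INCENP, the scaffold of the chromosomal passenger complex, which corrects faulty attachments at the inner centromere, read 7.10 and 7.22 in control and 7.71 and 7.74 in knockdown arrays. The nearest arrays of the groups were 0.49 apart, and the difference of 0.56 (SE 0.13, 1.48-fold, interval 0.26 to 0.87) had the smallest adjusted p of the 40 genes, 0.120. CDCA8, the gene of its subunit borealin, read 7.84 and 7.83 against 8.43 and 8.15, a difference of 0.46 (SE 0.14, adjusted p = 0.216). BIRC5, the gene of its subunit survivin, read 6.67 and 6.66 against 7.10 and 6.82, a difference of 0.30 (SE 0.14, adjusted p = 0.397). Whether these differences are larger than that of AURKB, the kinase of the complex, was not tested.

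Of the centromere proteins, CENPA, the histone H3 variant that marks centromeres, read 7.29 and 7.11 against 7.66 and 7.43, with a difference of 0.35 (SE 0.15, adjusted p = 0.335). CENPI, of the constitutive centromere network, was tight within groups, at 8.05 and 8.03 against 8.27 and 8.23 (difference 0.21, adjusted p = 0.481). CENPK, of the same network, read 8.64 and 8.30 against 8.58 and 8.40, with a difference of 0.02. NDC80, which binds microtubule ends, read 8.21 and 7.88 against 8.28 and 8.27, and its control gap of 0.33 exceeded its difference of 0.23.

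The spindle checkpoint genes follow. BUB1B, which encodes the checkpoint protein BUBR1, read 6.72 and 6.62 against 6.80 and 6.83 (difference 0.15, interval -0.15 to 0.45). MAD2L1, which encodes MAD2, the inhibitor of CDC20, read 8.79 and 8.26 in control and 8.64 and 8.57 in knockdown arrays, so both knockdown arrays lay between the control arrays. SGO1, the shugoshin that guards centromeric cohesion, had the same layout, at 8.91 and 8.48 against 8.72 and 8.73. The checkpoint kinases TTK and BUB1 and the adaptor BUB3 had differences of 0.18, 0.03 and 0.06, of which only BUB3 had separated groups, at a distance of 0.02.

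The spindle and cytokinesis class held both negative differences of the list. Of 8 measured genes 6 were positive and 2 negative, with a median of 0.17. RACGAP1, the GTPase-activating subunit of centralspindlin, had the largest difference of the 40 genes, 0.59 (SE 0.19, 1.51-fold, adjusted p = 0.220). Its arrays read 2.93 and 2.46 against 3.15 and 3.43, below the medians of 4.94 to 4.98 over the tested genes. These values lay close to the filter value of 2.54 and to the array medians of 3.20 to 3.22 over all probe sets. The control gap of RACGAP1 was 0.47. PRC1, which bundles the microtubules of the central spindle, read 8.60 and 8.68 against 8.86 and 8.94 (difference 0.26, SE 0.13, adjusted p = 0.403).

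ECT2, the exchange factor that activates RhoA at the cleavage furrow and a partner of centralspindlin, read 10.25 and 10.14 in control and 10.05 and 10.10 in knockdown arrays. Both knockdown arrays were lower, by -0.12 on average (interval -0.42 to 0.18, adjusted p = 0.728). HMMR, a hyaluronan receptor that also binds spindle microtubules, read 7.11 and 6.96 against 6.95 and 6.74, a difference of -0.19 (interval -0.52 to 0.14, adjusted p = 0.584). The groups of HMMR were only 0.01 apart. The microtubule-binding genes NUSAP1 and CKAP2 overlapped, with differences of 0.19 and 0.16, and GTSE1, a regulator of microtubule stability and p53, was separated with 0.18. CKAP2L was nearest to 0 of the 40 genes, at 8.71 and 8.60 against 8.76 and 8.55.

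**Figure D3:**
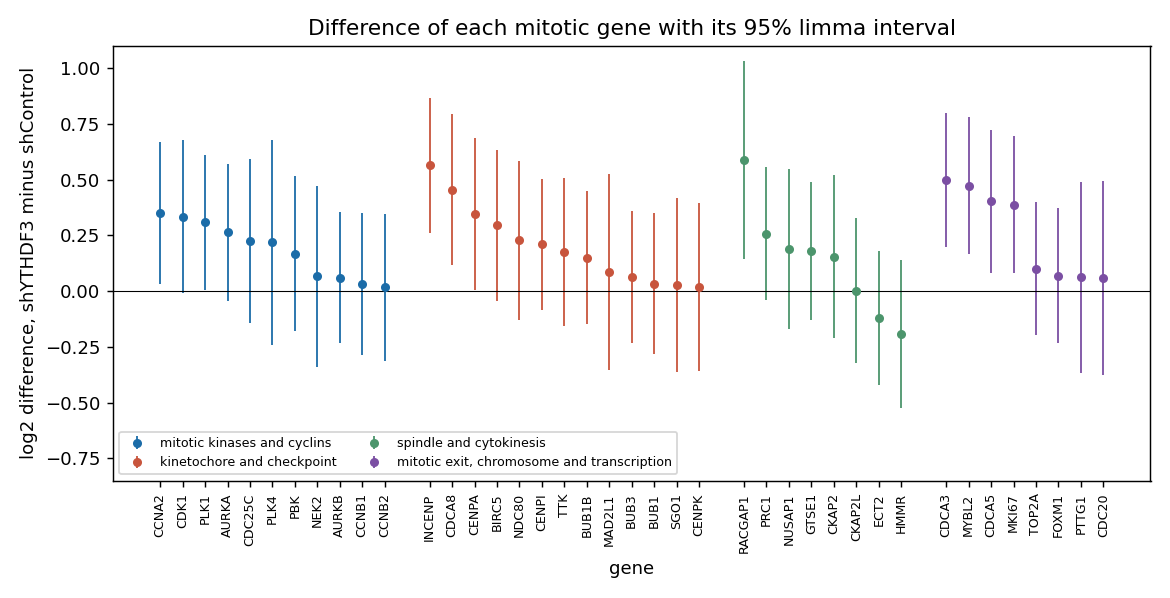
Log2 difference of each of the 40 mitotic genes (shYTHDF3 minus shControl), with its 95% interval from limma, by functional class. The intervals of 10 genes lie wholly above 0 before adjustment, none lies wholly below 0, and ECT2 and HMMR are the points below 0.

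All 8 measured genes of mitotic exit, chromosome structure and mitotic transcription were positive. In 5 of them knockdown lay above control without overlap, as in 22.6% of all tested genes. The genes of this class had a median of 0.24, which fell between MKI67 at 0.39 and TOP2A at 0.10 with no gene in between. Their median was the highest of the 4 classes in the deposited values, but below that of the kinases and cyclins after quantile normalization (0.228 against 0.232) and cyclic loess (0.205 against 0.208), and class differences were not tested. CDCA3, a trigger of WEE1 destruction at mitotic entry, read 5.58 in both control arrays and 6.14 and 6.02 in knockdown arrays. Its difference of 0.50 (SE 0.13, 1.41-fold) had an adjusted p of 0.148. CDCA5, sororin, which holds sister chromatids together, read 5.91 and 6.12 against 6.45 and 6.39, a difference of 0.40 (SE 0.14, adjusted p = 0.243). MKI67, the proliferation antigen Ki-67 that coats mitotic chromosomes, read 10.36 and 10.27 against 10.77 and 10.63 (difference 0.39, SE 0.13, adjusted p = 0.243). TOP2A, topoisomerase II alpha, which untangles sister chromatids, read 10.43 and 10.38 against 10.55 and 10.47, a difference of 0.10 (interval -0.20 to 0.40).

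MYBL2 and FOXM1 encode transcription factors that work in sequence on CHR promoters. MYBL2, which encodes B-MYB and is itself switched on around S phase, read 7.50 and 7.65 in control and 8.08 and 8.02 in knockdown arrays, a difference of 0.47 (SE 0.13, 1.39-fold, adjusted p = 0.168). FOXM1, which follows B-MYB in G2, read 7.50 and 7.54 against 7.52 and 7.66, with overlapping groups and a difference of 0.07 (interval -0.23 to 0.37). The difference between these genes was not tested. CDC20, the mitotic activator of the anaphase promoting complex, read 9.60 and 9.70 against 9.45 and 9.97, and its knockdown gap of 0.52 far exceeded the difference of 0.06. PTTG1, securin, a substrate of the complex, also had overlapping groups, at 5.75 and 5.29 against 5.69 and 5.47 (difference 0.06).

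Gaps between arrays of a group were of the size of the group differences. The median absolute gap of the 40 genes was 0.15 in control and 0.13 in knockdown arrays, against 0.15 in each group over all tested genes. The difference exceeded both gaps for 20 of the 40 genes, or 50%, against 33.9% of all tested genes. Control gaps ran mostly one way: shControl replicate 1 read above replicate 2 for 31 of 40 genes (77.5%, against 50.6% of all genes), with a median gap of 0.11. A control gap over 0.3 was found for 8 genes (20.0%, against 20.3% of all genes): CENPK, MAD2L1, NDC80, NEK2, PLK4, PTTG1, RACGAP1 and SGO1. Replicate 1 was the higher in all 8, and in 1259 of the 2584 such genes among all tested. In the knockdown pair replicate 1 was higher for 27 of 40 (67.5%, against 52.7%). Knockdown gaps over 0.3 were found for CDC20, CDC25C and CKAP2 (7.5%, against 20.7% of all genes).

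**Figure D4:**
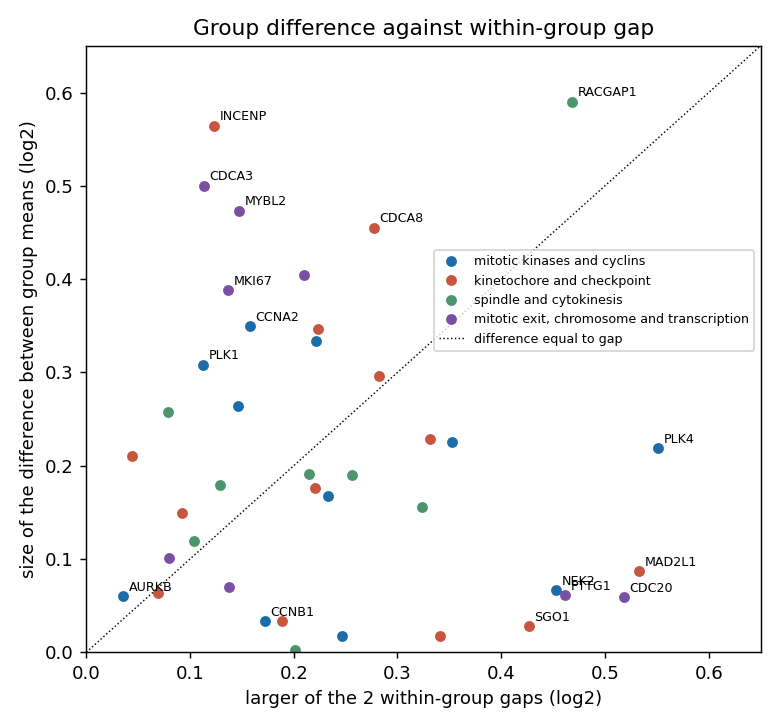
Size of the difference between group means against the larger of the 2 within-group gaps, both on the log2 scale, for the 40 mitotic genes by class; the dotted line marks equality. INCENP, CDCA3, MYBL2 and MKI67 lie well above the line, and PLK4, MAD2L1, CDC20, PTTG1, NEK2 and SGO1 lie far below it.

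Leaving out a single control array moved the median of the whole set. Without shControl replicate 2 the median difference of the 40 genes was 0.08 and 28 were positive; without shControl replicate 1 it was 0.28 and 38 were positive. Leaving out shYTHDF3 replicate 1 or replicate 2 gave medians of 0.13 and 0.23, with 34 and 36 positive. By class, the median of the kinases and cyclins was 0.06 and that of the kinetochore genes 0.07 without shControl replicate 2, and that of the spindle genes 0.03 without shYTHDF3 replicate 1. The class of mitotic exit, chromosome and transcription genes kept medians between 0.23 and 0.32 with any 1 array left out. INCENP stayed between 0.50 and 0.63, CDCA3 between 0.44 and 0.56, and MYBL2 between 0.40 and 0.55. With an intensity trend in limma's variance model, INCENP (adjusted p = 0.0297) and MYBL2 (adjusted p = 0.0499) passed the threshold, the only 2 of the 40 under any alternative tried.

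Genes with and without the promoter letters were set side by side as a description. Of the 33 measured genes with a promoter window, the 21 holding TTTGAA had a median difference of 0.22 and the other 12 a median of 0.06. For the full CHR search the medians were 0.19 with a match (23 genes) and 0.11 without (10 genes). For CCAAT they ran the other way, 0.10 with a match (27 genes) and 0.22 without (6 genes), and for the E2F-like letters they were 0.34 (4 genes) and 0.15 (29 genes). With TTTGAA in the 50 bases upstream of the start, a span chosen after the positions were seen, 15 genes had a median of 0.26. Of these, 12 had separated groups with knockdown above control. Of the 18 without, the median was 0.08 and 6 were so separated, against 22.6% of all tested genes. For the full CHR search 13 of the 23 genes with a match and 5 of the 10 without were so separated. The letters searched did not sort single genes. INCENP and CCNB2 both carry TTTGAA near the start, with differences of 0.56 and 0.02. CCNA2 and MYBL2 had neither TTTGAA nor TTTAAA in the window, with 0.35 and 0.47, and variants such as CTTGAA were not searched. HMMR, with the lowest difference of the 40 genes, held TTTGAA at -28 and at -22.

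Other mitotic genes, from lists set by function, included no gene past limma's adjusted threshold in either direction. Their counts can be read against all tested genes, of which 50.8% were positive, and 6.24% were higher and 8.48% lower at an unadjusted p under 0.05. Of 27 further centromere and kinetochore genes 22 were positive (median 0.16). ZWINT, which helps to recruit checkpoint proteins to the outer kinetochore, read 6.96 and 6.999 against 7.80 and 7.53 (difference 0.69, adjusted p = 0.0983), while CENPH, a partner of CENPI and CENPK, read 6.17 and 6.04 against 5.59 and 5.49 (difference -0.56, adjusted p = 0.129). CENPO had a difference of 0.42. These 27 genes had 6 higher and 1 lower at an unadjusted p under 0.05.

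Among 19 other regulators of mitotic entry 13 were positive, with a median of 0.20. CCNF, cyclin F, a ubiquitin ligase subunit that is highest in G2, read 6.03 and 6.23 against 6.85 and 7.02 (difference 0.81, adjusted p = 0.0636). CDC25A, a phosphatase of CDK2 and CDK1, also differed by 0.81 (adjusted p = 0.0806), and the stress-related kinase gene PLK3 by -0.48 (adjusted p = 0.159). CDC25A is counted in the G1/S and replication list too. Of 17 anaphase promoting complex genes 11 were positive (median 0.10). UBE2S, which extends ubiquitin chains for the complex, read 7.74 and 7.88 against 8.40 and 8.80 (difference 0.79, adjusted p = 0.0986), and the subunit CDC26 and the inhibitor FBXO5 had 0.37 and 0.49.

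Of 17 listed condensin and cohesin genes 9 were tested. They did not lean to one side, with 5 positive and a median of 0.01. The NCAP genes of condensin had no named probe set, so condensin rested on SMC2 and SMC4 alone. The separase gene ESPL1 had 0.36, the cohesin gene SMC1A 0.23 and the cohesin release factor gene WAPL 0.18. The cohesin genes SMC3, STAG2 and RAD21, named after their values were seen, had -0.18, -0.15 and -0.12, with groups separated for RAD21. Of 18 other spindle, centrosome and cytokinesis genes 15 were positive (median 0.11); the 3 with the smallest p were KNSTRN with 0.40, PSRC1 with 0.38 and NUMA1 with 0.30. The MuvB and DREAM genes were split, 5 of 10 positive with a median of 0.01. LIN37, a MuvB subunit required for DREAM to repress, read 6.99 and 7.31 against 6.36 and 6.31 (difference -0.82, adjusted p = 0.0689), LIN52, another subunit, had -0.53 (adjusted p = 0.214), and the B-MYB relative MYBL1 had 0.62 (adjusted p = 0.115). Of the cell cycle brakes only 3 of 16 listed genes were tested: CCNG2, an inhibitory cyclin, read 5.69 and 5.46 against 4.86 and 4.64 (difference -0.82, adjusted p = 0.0679), SFN had 0.45 and CCNG1 -0.04. With the filter at the 50th percentile, CCNF (adjusted p = 0.0421), LIN37 (adjusted p = 0.046) and CCNG2 (adjusted p = 0.0451) passed limma's threshold. With the intensity trend these 3 passed as well, and so did UBE2S, ZWINT, CDC25A and MYBL1, with adjusted p-values from limma between 0.0155 and 0.0325. Only up to 3 genes of each of these lists, those of smallest p, were looked up under the alternatives.

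In median difference the mitotic genes sat below the G1/S and replication genes and level with the kinesin list. That list was not limited to mitotic motors. It also held transport motors such as KIF3A, KIF3B and KIF5B, and no median was taken without them. The 29 tested G1/S and replication genes had a median of 0.36, with 28 positive and 17 higher at an unadjusted p under 0.05; CCNE1, FEN1 and MCM10 stood at 0.93, 0.76 and 0.77. The 21 kinesins had a median of 0.18, but 5 were negative and differences ran from -0.42 to 0.50. KIFC1, KIF11 and KIF3A stood at 0.50, 0.46 and -0.39. The lowest value was that of KIF20B, not one of the transport motors named, while the transport motor KIF3B stood at 0.39. The 40 mitotic genes ran from -0.19 to 0.59. No gene of either list passed limma's adjusted threshold with the deposited values and the 30th percentile filter, and the differences between lists were not tested. With the filter at the 50th percentile CCNE1 (adjusted p = 0.0401), FEN1 (adjusted p = 0.046) and MCM10 (adjusted p = 0.0473) passed limma's threshold. With the intensity trend these 3 passed, as did KIF11 (adjusted p = 0.0469 from limma). CDC25A, also on the G1/S list, passed with the trend as well (adjusted p = 0.0174 from limma). Apart from CDC25A, only the 3 genes of smallest p in each list were looked up under the alternatives. Neither list was therefore screened in full. The lists share the same 4 arrays.

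**Figure D5:**
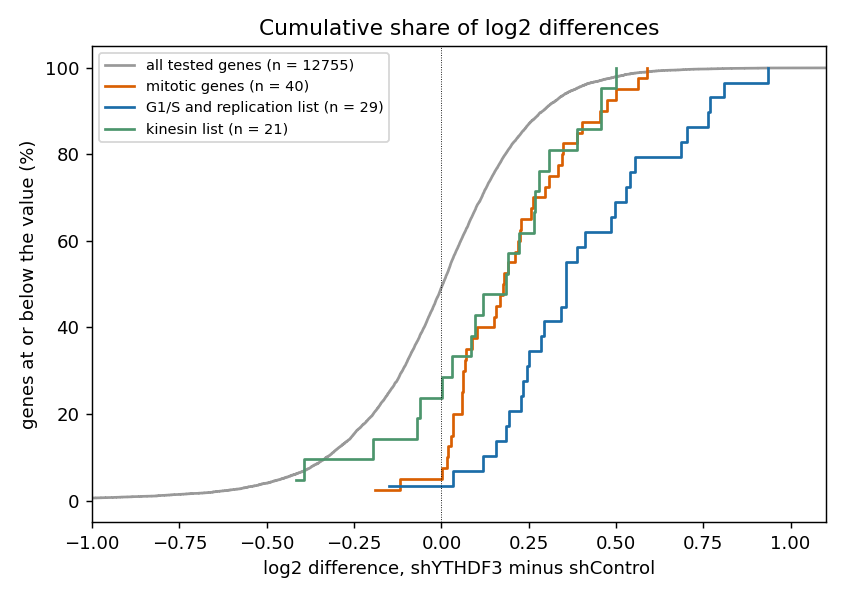
Cumulative share of genes by log2 difference (shYTHDF3 minus shControl) for all 12755 tested genes, the 40 mitotic genes, the 29 G1/S and replication genes and the 21 kinesins. The curve of the mitotic genes starts at -0.19 and lies to the right of that of all genes, and the G1/S curve lies farther right with a median of 0.36.

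Precision sets how firmly these values can be read. The SE of a difference among the 40 genes ran from 0.12 to 0.20 with a median of 0.14, and the 95% intervals of 30 of them included 0. The upper bounds of the 95% intervals reached at most 1.03 (RACGAP1) and the lower bounds at most -0.52 (HMMR).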

How the data were processed

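The deposited values are log2 expression, with a column for each array and a line for each probe set. Per the submitters' processing notes the values come from RMA, which normalizes between arrays and so removes shifts common to all genes; no source used here gives its version or settings, or the array's genome build.

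Of 53617 probe sets, the platform annotation gave 1 gene symbol for 16098 and no name for 37519; 0 had several symbols. All 16098 matched RefSeq by Entrez identifier, with 0 symbols changed. A gene took its brightest probe set by mean, and entered the test if that mean was at least 2.54, the 30th percentile over all probe sets. The groups were tested 2-sided in limma 3.58.1 (R 4.3.3; lmFit, eBayes) without covariates, on 2 residual and 5.30 prior degrees of freedom, with Benjamini-Hochberg adjustment over 12755 genes at 0.05. The code was tested on simulated data. The number of arrays limits the precision.

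The genes, classes and lists were chosen with earlier results of these data known. The naming rule took 17 core genes by symbol (TPX2 and ASPM among them had no probe set), the extremes of each class, every gene with an unadjusted p under 0.05 or a negative difference, and up to 3 genes of smallest p in each further list; the other measured genes were named for completeness. Alternatives changed the filter, the choice of probe set, normalization, the variance model, the threshold and the class of 3 checkpoint kinases, added a replicate block, or left out an array.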

Additional observations from a re-analysis of the deposited data

How the results depend on the processing

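The count of mitotic genes past limma's threshold was 0 under all alternatives but one; with an intensity trend it was 2. At an unadjusted p under 0.05 limma gave 10 of 40. Over all tested genes the count was 96, and it was 167 with the filter at the 50th percentile (10342 genes tested), 375 with the intensity trend, 250 at an adjusted p under 0.10 and 11 with the replicate block; the causes were not tested. With 1 array left out it ran from 0 to 36, where the lone array is assumed to vary like the other group. The replicate block, which pairs arrays by the number in their titles, called 0 of the 40 genes; deviations of same-numbered arrays correlated at 0.04 over all genes and at 0.14 over the 40 genes, of which 24 read higher in replicate 1 of both groups. The labels give the numbers no shared batch or culture, so the arrays are taken to share only a number.

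With 1 array left out, medians of the differences ran from 0.0597 to 0.28 for kinases and cyclins, from 0.0276 to 0.22 for spindle genes and from 0.23 to 0.32 for the class of mitotic exit, chromosome and transcription. The signs of 12 mitotic genes changed in at least 1 such fit, 10 of them without shControl replicate 2. Their ranges were -0.0603 to 0.13 for BUB1, -0.0528 to 0.12 for CCNB1, -0.11 to 0.14 for CCNB2, -0.20 to 0.32 for CDC20, -0.15 to 0.19 for CENPK, -0.0064 to 0.32 for CKAP2, -0.10 to 0.10 for CKAP2L, -0.18 to 0.35 for MAD2L1, -0.16 to 0.29 for NEK2, -0.0569 to 0.49 for PLK4, -0.17 to 0.29 for PTTG1 and -0.19 to 0.24 for SGO1; CCNG1 ran from -0.20 to 0.11. Quantile normalization put BUB1 at -0.00623, and cyclic loess put CENPK at -0.00254 and CKAP2L at -0.0197. Of 519 alternative values of the 40 genes, 498 kept the sign and the side of the threshold. Many of these could not change sign. With 1 probe set per gene, the filter, probe set choice, variance model and replicate block leave a difference as it was. The count is therefore no measure of how stable the signs are. RACGAP1, the 1 gene of the 40 below the 50th percentile filter, is the one that signal over background limits most.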
